A study of Mus with 12 samples.

Results

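The 9 laminin chain genes Lama1, Lama2, Lama3, Lama4, Lama5, Lamb1, Lamb2, Lamb3 and Lamc1 were followed in the mouse uterus on 4 days of pregnancy. They were taken by gene name, where the row of the deposited table also carried an Ensembl mouse transcript, which gave 9 of 87235 rows in the table of the implantation stage and 9 of 40787 rows in the table of the labor stage. RNA had been sequenced from whole uteri of 12 pregnant ICR mice, an outbred stock, whose age the labels give as 8 weeks, with 3 mice each at E0.5 (the morning after mating), E4.5 (implantation), E15.5 and E18.5 (just before labor). All animals shared the stock, and age at collection can differ by the days since mating. No treatment or genotype is given for any of them, and the groups are set by day of pregnancy. No non-pregnant animals were among them. The study set E0.5 against E4.5 and E18.5 against E15.5, to ask which transcripts differ around implantation and around labor.

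Laminins are secreted glycoproteins built from an alpha, a beta and a gamma chain. They polymerise on cell surfaces into the first layer of a basement membrane, to which collagen IV is then linked by nidogens and perlecan, and cells hold on to them through integrins and dystroglycan. The alpha chain decides which receptors bind and in which tissue the trimer is found: Lama5 is typical of epithelia, Lama2 of muscle, Lama4 of blood vessels and smooth muscle, Lama3 of the hemidesmosomes of stratified and glandular epithelia, and Lama1 of the early embryo and of a few adult epithelia. In the uterus, basement membranes lie under the luminal and glandular epithelium, around vessels and muscle cells, and around each decidual cell.

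Levels are in FPKM, fragments scaled to transcript length and to library size, a unit per length that allows chains to be compared within a table. The tables were assembled and normalized separately, so no test was made across them. Fold changes are log2 values of E0.5 minus E4.5 or of E18.5 minus E15.5, each from 3 against 3 mice. Those of the implantation stage come from edgeR's quasi-likelihood test on counts, and those of the labor stage from limma on log2(FPKM + 0.1). The adjusted p is a Benjamini-Hochberg value over all rows tested, called under 0.05. To meet the criterion the study used, a row needed a log2 fold change of 1 or more in either direction and an unadjusted p under 0.05. In whole organs, fewer cells of a type and less RNA per cell cannot be told apart.

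Library totals in the implantation table were 58020989 to 70906881 counts. The labor table holds no counts, and its depth could not be read from its low values. E4.5 replicate 3 stood apart. Its rank correlation with the other E4.5 libraries was 0.711 and 0.725, against 0.910 between those 2. In it the 11 ovary markers summed to 1276 FPKM, against 8.78 to 12.9 in the other 5 libraries, in all of which the oocyte gene Zp3 was listed at 0, and its 8 smooth muscle markers summed to 208 FPKM, against 804 to 1221. E15.5 replicate 1 held 1342 FPKM of the decidual prolactin Prl8a2, against 72.1 and 86.0 in the other E15.5 libraries. The sums of the epithelium and of the smooth muscle markers were above 0 in every library, at 88.2 FPKM or more, and where leaving out 1 of the 2 libraries standing apart changes a call on a laminin chain or a partner gene named here, the value without it stands beside the result.

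Among the alpha chains, Lama1 had the largest difference of the implantation stage. The sequences that tie it to the study are those of the primers that the authors designed for a non-coding transcript of this locus, which they call lncRNA-LAMA1. Its Ensembl transcript, ENSMUST00000233821, is 1 of the 3 that the implantation table pools into its Lama1 row, and it is not in the Lama1 row of the labor table, so the Lama1 values of the implantation stage do not separate it from the coding transcript. The primers are shown 5′ to 3′, with capitals marking the whole annealing oligonucleotide, of 25 and 22 bases.
m-lncRNA-LAMA1-F: GCAGAGGCTGACTTCCACTTACTAC
m-lncRNA-LAMA1-R: TCACTGTCCACCGTCTCCACTG

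The Lama1 row spans chr17:67697259-67822647 on the plus strand. At E0.5 its level was 0.208, 0.324 and 0.0618 FPKM in replicates 1, 2 and 3, from 241, 326 and 74 counts. At E4.5 it was 3.28, 3.47 and 26.2 FPKM, from 3775, 3840 and 28713 counts. Every E4.5 library was above every E0.5 library, and E4.5 replicate 3 was far above the other E4.5 libraries. The mean was 0.198 ± 0.131 FPKM at E0.5 and 10.97 ± 13.2 at E4.5 (SD, n = 3 each). With a log2 fold change of -5.74 and a standard error of 1.13 (edgeR adjusted p = 0.0680), Lama1 met the study's criterion and missed the adjusted threshold. Without E4.5 replicate 3, the library with the ovary markers, it was -4.10 with a standard error of 0.59 (edgeR adjusted p = 0.0128). In E4.5 replicates 1 and 2, where the ovary markers summed to 8.78 and 10.8 FPKM, Lama1 was still above all E0.5 libraries; the part of ovary tissue in the level of replicate 3 was not tested.

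Lama2, the alpha chain of muscle basement membranes, was also higher at E4.5. Its level was 3.36, 4.91 and 5.74 FPKM at E0.5 against 11.9, 13.4 and 8.96 FPKM at E4.5. The days did not overlap, and the log2 fold change was -1.28 with a standard error of 0.27 (edgeR adjusted p = 0.0791), which met the study's criterion, and it was -1.44 without E4.5 replicate 3 (edgeR adjusted p = 0.0196). E4.5 replicate 3 was the lowest E4.5 library for Lama2, and it was also the library with the lowest sum of smooth muscle markers. The row lies at chr10:26980036-27616866 on the minus strand. The sum of the smooth muscle markers was 1221 and 804 FPKM in E4.5 replicates 1 and 2, above and below the 842 to 1164 FPKM of E0.5, and the part of muscle in the Lama2 level was not tested.

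Lama3, the alpha chain of hemidesmosomal laminin, was 2.49, 2.002 and 3.47 FPKM at E0.5 against 11.1, 17.5 and 2.30 FPKM at E4.5. E4.5 replicates 1 and 2 were above all E0.5 libraries, while E4.5 replicate 3 lay within the E0.5 range. Lama3 had a log2 fold change of -1.96 with a standard error of 0.67 (edgeR adjusted p = 0.216), which met the study's criterion. It was -2.44 without E4.5 replicate 3, with a standard error of 0.28 (edgeR adjusted p = 0.00598). The implantation row, at chr18:12333492-12586997, also carries the name of the predicted gene Gm29201, and its counts per FPKM, at equal library size, were 45.8 to 48.0 on a scale on which the other 8 rows lay at 8.06 to 26.5. Its level is therefore less comparable with other chains than its change between days.

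Lama5 had the opposite direction. This chain of epithelial basement membranes was 45.6, 39.3 and 42.7 FPKM at E0.5 against 26.0, 22.5 and 9.49 FPKM at E4.5. All E0.5 libraries were above all E4.5 libraries, with E4.5 replicate 3 the lowest. Its log2 fold change was 1.13 with a standard error of 0.39 (edgeR adjusted p = 0.212), which met the study's criterion. Without E4.5 replicate 3 it was 0.79 with a standard error of 0.16 (edgeR adjusted p = 0.0360), past the adjusted threshold but under the fold of the criterion. The row, at chr2:180176373-180225859 on the minus strand, also carries the microRNA gene Mir7005. The 9 epithelium markers summed to 280 to 328 FPKM at E0.5 against 145, 200 and 88.2 FPKM at E4.5, so their sum was lower on the same day as Lama5 and lowest in the same library. Single markers differed from the sum. Cldn4 was 7.59 to 11.3 FPKM at E0.5 against 14.1, 13.1 and 4.66 FPKM at E4.5. Krt18 was 63.7 to 76.4 FPKM at E0.5 against 53.1, 81.8 and 30.6 FPKM at E4.5, and Krt19 was lowest in E4.5 replicate 1. Of the 9 epithelium markers 4 met the criterion, all higher at E0.5, against 12.2% of all rows. Without E4.5 replicate 3 it was 2, against 14.4%. Among the 4 was Krt8 (log2 fold change 1.96, edgeR adjusted p = 0.0248). The part of the epithelium in the Lama5 difference was not tested.

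Lama4, the alpha chain of vessels and smooth muscle, showed no difference beyond the spread. It was 7.18, 8.82 and 8.09 FPKM at E0.5 against 8.10, 5.92 and 7.70 FPKM at E4.5, and the log2 fold change was 0.16 with a standard error of 0.20 (edgeR adjusted p = 0.725). The 9 endothelium markers summed to 31.1 to 37.1 FPKM at E0.5 against 43.7 to 83.3 FPKM at E4.5. Of these markers 3 met the criterion, all lower at E0.5, against 12.2% of all rows. Without E4.5 replicate 3 it was 4, against 14.4%. Among the 3 was Cdh5, with a log2 fold change of -1.48 (edgeR adjusted p = 0.0922). Lama4 overlapped between the days where these sums did not.

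**Figure D1:**
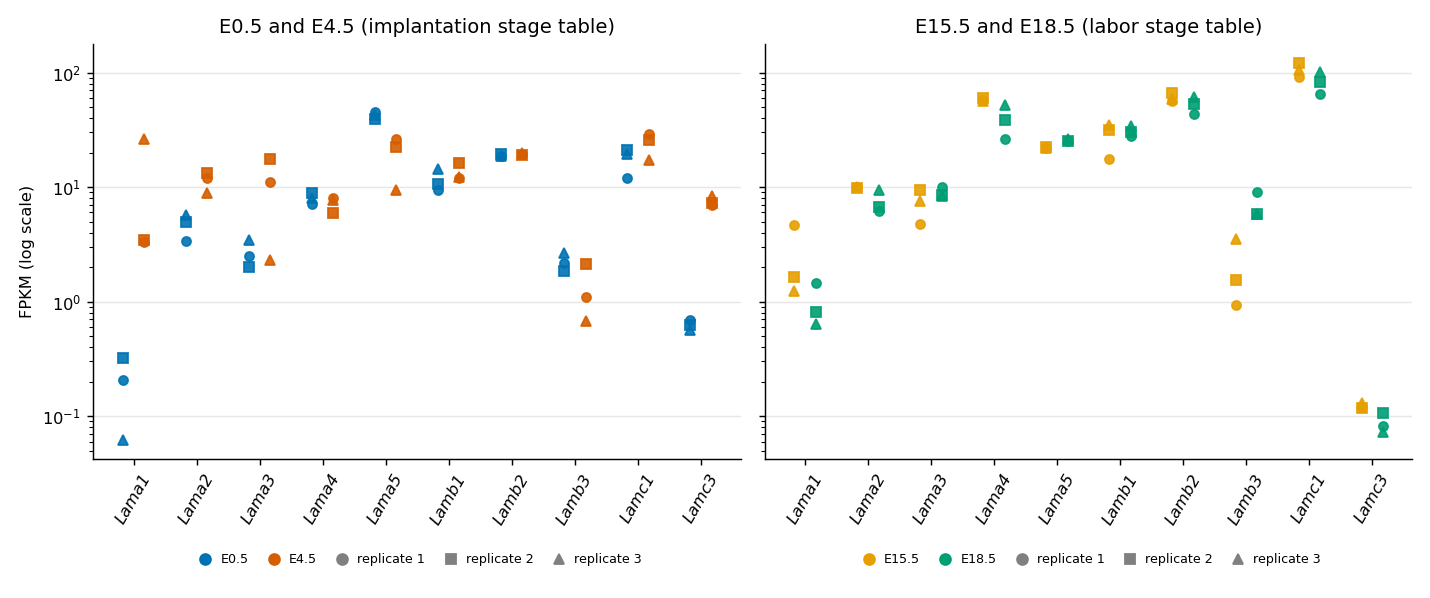
FPKM (log scale) of the 9 laminin chains and of Lamc3 in each of the 12 libraries, E0.5 and E4.5 on the left and E15.5 and E18.5 on the right, with 1 point per mouse and the replicate number as the shape. Lama1 lies between 0.0618 and 0.324 FPKM at E0.5 against between 3.28 and 26.2 FPKM at E4.5, and Lamb2 stays between 18.6 and 19.9 FPKM in all 6 libraries on the left.

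None of the beta chains met the criterion between E0.5 and E4.5. Lamb2, the beta chain of laminins of muscle, vessels and kidney, was the steadiest chain, at 18.6, 19.4 and 18.8 FPKM at E0.5 against 19.3, 19.1 and 19.9 FPKM at E4.5. Its log2 fold change was -0.03 with a standard error of 0.14 (edgeR adjusted p = 0.945), a value whose sign turns with the scaling (0.06 with upper quartile factors). The implantation row of Lamb2, at chr9:108479736-108502347, is merged with the neighbouring ubiquitin protease gene Usp19. In the labor table the genes have rows of their own, with 5.58 to 8.18 FPKM for Usp19 and 43.5 to 65.7 FPKM for Lamb2.

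Lamb1, the beta chain of the embryonic and of many adult laminins, was 9.49, 10.6 and 14.3 FPKM at E0.5 against 12.1, 16.3 and 12.2 FPKM at E4.5, with overlapping days. The log2 fold change was -0.23 with a standard error of 0.22 (edgeR adjusted p = 0.641). Lamb3, the beta chain that pairs with Lama3, was 2.17, 1.86 and 2.63 FPKM at E0.5 against 1.11, 2.11 and 0.671 FPKM at E4.5. Its days overlapped through E4.5 replicate 2, and the log2 fold change was 0.79 with a standard error of 0.42 (edgeR adjusted p = 0.377). The rows lie at chr12:31265080-31330894 (Lamb1) and chr1:193207699-193343878 (Lamb3), both on the plus strand, and the Lamb3 row begins upstream of the RefSeq gene.

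Lamc1, the gamma chain shared by most laminin trimers, was 12.03, 21.3 and 19.5 FPKM at E0.5 against 28.9, 25.8 and 17.3 FPKM at E4.5. E4.5 replicates 1 and 2 were above all E0.5 libraries, and E4.5 replicate 3 lay within their range. The log2 fold change was -0.44 with a standard error of 0.31 (edgeR adjusted p = 0.502), and -0.65 without E4.5 replicate 3 (edgeR adjusted p = 0.216). The row lies at chr1:153218859-153332971 on the minus strand.

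Of the 9 chains, 4 met the study's criterion between E0.5 and E4.5, against 12.2% of all 59732 rows tested. Lama1, Lama2 and Lama3 were lower at E0.5, as were 5.82% of all rows, and Lama5 was higher, as were 6.37%. In 3 chains (Lama1, Lama2 and Lama5) the days did not overlap, against 25.2% of all rows, a share close to that of the chains. The adjusted threshold was passed by 0 of 9 chains in edgeR (4 had an unadjusted p under 0.05, and DESeq2 called Lama1, Lama2 and Lama3), against 1.22% of all rows, so that a count of 0 among 9 is not a result about the laminins. Without E4.5 replicate 3, 4 of 9 chains passed it (Lama1, Lama2, Lama3 and Lama5), against 6.28% of all rows, 3 met the criterion, against 14.4%, and 5 did not overlap, against 40.3%. DESeq2 called 9.85% of all rows on the 6 libraries. The median log2 fold change of the 9 chains was -0.23, against -0.01 over all rows. The values ranged from -5.74 for Lama1 to 1.13 for Lama5, so the median describes no common direction.

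The composition within the alpha and the beta chains is given by shares of summed FPKM. At implantation, of the 5 alpha chains, Lama5 made up 77.5%, 71.0% and 71.1% in the E0.5 libraries against 43.1%, 35.8% and 17.4% in the E4.5 libraries. Lama2 held 19.7%, 21.3% and 16.4% at E4.5, and Lama3 18.4%, 28.0% and 4.22%. These shares and the sum below take Lama3 as deposited, on the scale that is less comparable at implantation, so the order of Lama2 and Lama3 is not read from them. In E4.5 replicate 3 Lama1 itself was the largest, with 47.9%. The summed alpha chain level was 54.6 to 62.8 FPKM in the 6 libraries. The 4 alpha chains other than Lama3 summed to 56.3, 53.3 and 56.6 FPKM in the E0.5 libraries against 49.3, 45.2 and 52.3 FPKM in those of E4.5. Without Lama3 the sum was thus lower at E4.5, but narrowly, with 53.3 against 52.3 FPKM at the closest. In E4.5 replicate 3, which had the 52.3 FPKM, 26.2 FPKM of the sum was Lama1. Among the beta chains the Lamb2 row, merged with Usp19 at implantation, held 50.8% to 61.5% in the 6 implantation libraries. In the 6 labor libraries, where Lamb2 has a row of its own, it held 54.3% to 75.4%. Its shares are therefore not compared between the stages.

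**Figure D2:**
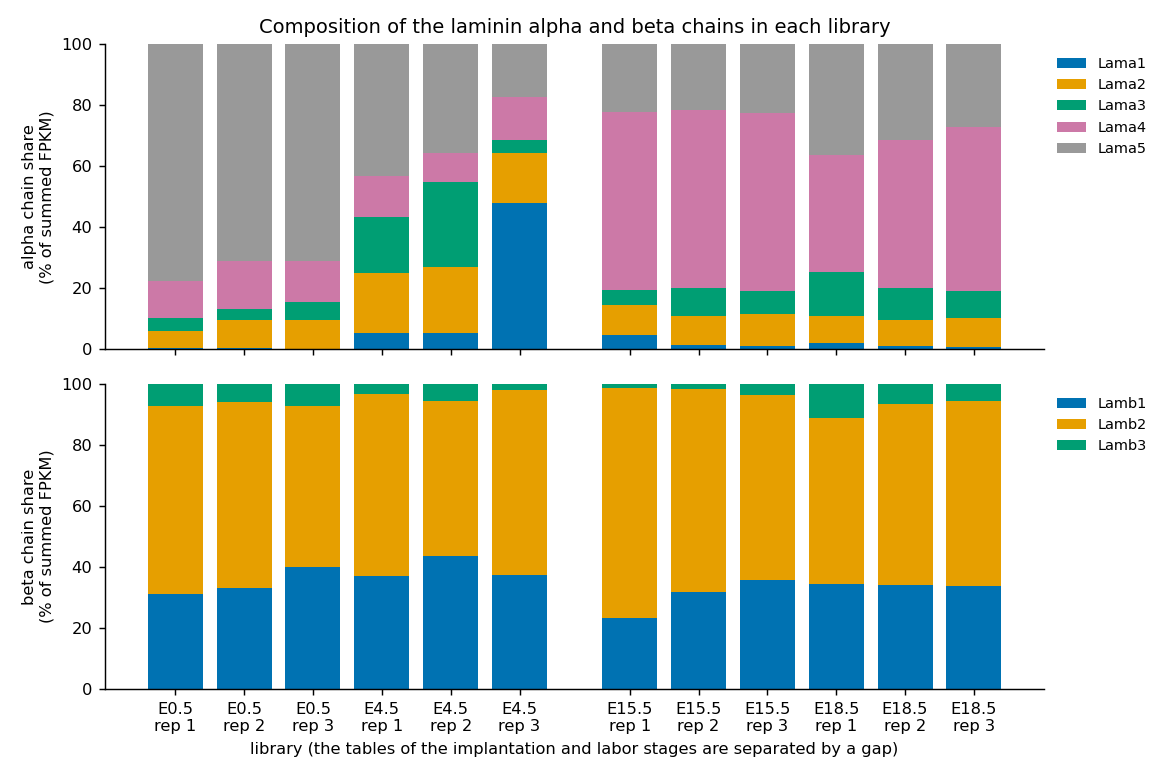
Share of each chain in the summed FPKM of its class (percent, vertical axis) in each of the 12 libraries (horizontal axis), for 5 alpha and 3 beta chains. Lama5 takes 71.0% to 77.5% of the alpha chains at E0.5, and Lama4 takes 58.2% in each E15.5 library.

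Lamc3, a gamma chain of limited tissue range outside the 9 genes, had a difference past the adjusted threshold at implantation. It was 0.695, 0.630 and 0.561 FPKM at E0.5 against 7.02, 7.32 and 8.44 FPKM at E4.5. Lamc3 was lower at E0.5 in every library, with a log2 fold change of -3.58 and a standard error of 0.18 (edgeR adjusted p = 0.00505). It was alike in E4.5 replicate 3 and in the other E4.5 libraries, and without that library it was -3.52 (edgeR adjusted p = 0.00072).

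**Figure D3:**
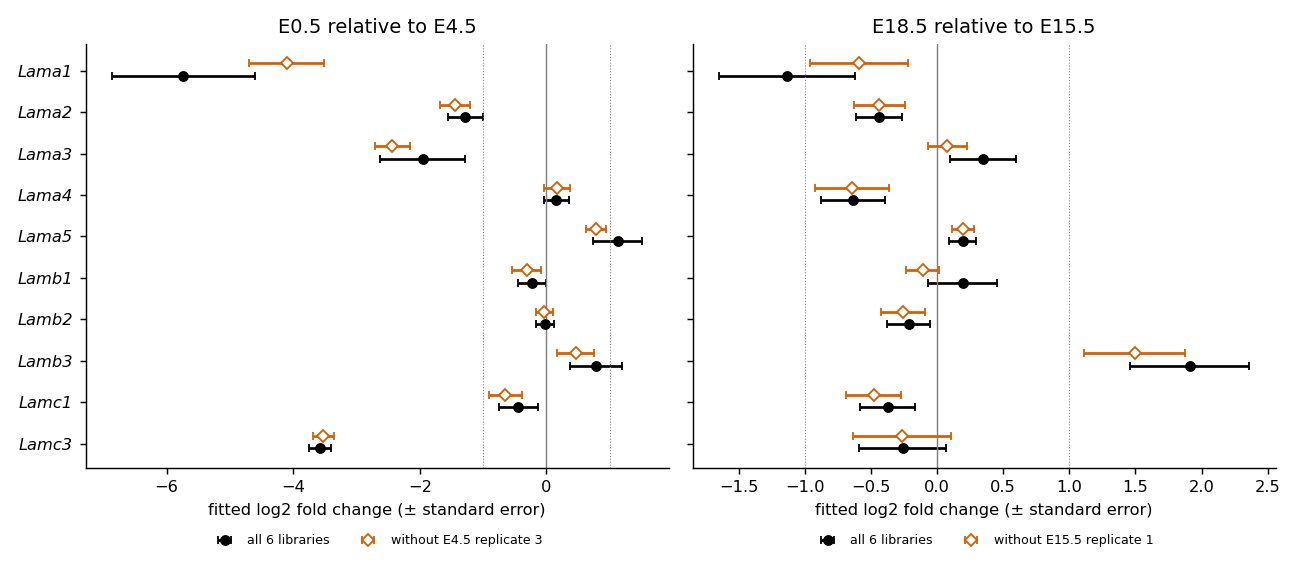
Fitted log2 fold changes with standard errors (horizontal axis) of the 9 laminin chains and of Lamc3 for E0.5 relative to E4.5 (left) and E18.5 relative to E15.5 (right), from all 6 libraries (filled points) and without the library that stood apart (open diamonds). Dotted lines mark an absolute log2 fold change of 1. Lama1 lies at -5.74 and at -4.10 without E4.5 replicate 3, and Lamb3 at 1.91 and 1.495 in the right panel.

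Before labor, the chain with the largest difference was Lamb3, which was higher at E18.5. Its level was 0.926, 1.53 and 3.51 FPKM at E15.5 and 9.02, 5.87 and 5.79 FPKM at E18.5. The days did not overlap. The mean was 1.99 ± 1.35 FPKM at E15.5 and 6.89 ± 1.84 at E18.5 (SD, n = 3 each), and the log2 fold change was 1.91 with a standard error of 0.45 (limma adjusted p = 0.185). Lamb3 met the study's criterion and missed the adjusted threshold, and it was 1.495 with a standard error of 0.38 without E15.5 replicate 1 (limma adjusted p = 0.297). As a share of the beta chains it was 1.23%, 1.55% and 3.62% at E15.5 and 11.3%, 6.60% and 5.71% at E18.5.

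The epithelium markers were also higher at E18.5, summing to 664 to 925 FPKM against 206, 322 and 460 FPKM at E15.5. Lamb3 and the sum of these markers had the same order over the E15.5 libraries, lowest in replicate 1 and highest in replicate 3. Both were highest in E18.5 replicate 1. Of the 9 markers 5 met the criterion, all higher at E18.5, against 6.05% of all rows. Without E15.5 replicate 1 it was 4, against 5.02%. Among the 5 was Krt8 (log2 fold change 1.56, limma adjusted p = 0.173). The trophoblast marker Tpbpa was higher at E18.5 too, at 31.9 to 52.7 FPKM against 1.41 to 6.20 FPKM, and the trophoblast list summed to 43.9 to 75.1 FPKM at E18.5 and to 35.1, 5.07 and 4.07 FPKM at E15.5. The part of either cell type in the Lamb3 difference was not tested.

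Lama3, a partner of Lamb3 in the same trimer, was 4.77, 9.40 and 7.49 FPKM at E15.5 and 9.93, 8.45 and 8.34 FPKM at E18.5. Its days overlapped, with a log2 fold change of 0.35 ± 0.25 (SE, limma adjusted p = 0.611), and 0.08 without E15.5 replicate 1 (limma adjusted p = 0.890). The difference between the fold changes of Lamb3 and Lama3 was not tested.

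Lama4 was lower at E18.5. It was 57.6, 59.9 and 56.7 FPKM at E15.5 and 26.3, 38.4 and 51.6 FPKM at E18.5, so the E15.5 libraries lay close together, the E18.5 libraries were spread, and the days did not overlap. The log2 fold change was -0.64 with a standard error of 0.24 (limma adjusted p = 0.364), under the fold of the criterion. Lama4 alone made up 58.2% of the alpha chains in each E15.5 library and 38.2%, 48.3% and 53.7% at E18.5. Of the 9 endothelium markers, the junction gene Cdh5 was 104, 129 and 101 FPKM at E15.5 and 32.8, 47.1 and 63.8 FPKM at E18.5 and met the criterion with a log2 fold change of -1.26 (limma adjusted p = 0.153). The median log2 fold change of the list was -0.06, 4 of the 9 values were above 0, and the 8 markers other than Cdh5 summed to 58.1 to 60.1 FPKM at E15.5 and 52.5 to 57.2 FPKM at E18.5. The part of vessels in the Lama4 difference was not tested.

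Lama2 was 9.92, 9.73 and 10.1 FPKM at E15.5 and 6.14, 6.74 and 9.37 FPKM at E18.5, lower in every E18.5 library, with a log2 fold change of -0.44 ± 0.17 (SE, limma adjusted p = 0.387). Lama5 was 22.1, 22.3 and 22.0 FPKM at E15.5 and 25.0, 25.0 and 26.0 FPKM at E18.5. Its days did not overlap, but the log2 fold change was 0.20 ± 0.10 (SE, limma adjusted p = 0.491). Lama5 thus showed a small gap with little spread on either day, at 22.1 ± 0.17 and 25.4 ± 0.59 FPKM (SD, n = 3 each).

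Lama1 was 4.63, 1.63 and 1.24 FPKM at E15.5 and 1.46, 0.813 and 0.633 FPKM at E18.5. The days overlapped through E18.5 replicate 1, and E15.5 replicate 1 stood above all other libraries. The log2 fold change was -1.13 with a standard error of 0.52 (limma adjusted p = 0.439), and -0.59 without E15.5 replicate 1 (limma adjusted p = 0.642). Lama1 is also known from the parietal endoderm that lays down the basement membrane around the rodent embryo. The list of 13 parietal endoderm and yolk sac markers, which mixes genes of the parietal and of the visceral layer, summed to 66.3, 202 and 1063 FPKM at E15.5 and to 338, 804 and 202 FPKM at E18.5. The part of these tissues in the Lama1 level was not tested.

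Lamb1 was 17.7, 31.4 and 34.8 FPKM at E15.5 and 27.6, 30.4 and 34.4 FPKM at E18.5, with a log2 fold change of 0.19 ± 0.26 (SE, limma adjusted p = 0.794). E15.5 replicate 1 was the low library, and without it the value was -0.11. Lamb2 was 56.9, 65.7 and 58.7 FPKM at E15.5 and 43.5, 52.6 and 61.2 FPKM at E18.5, with a log2 fold change of -0.22 ± 0.16 (SE, limma adjusted p = 0.631). Lamc1 was 91.0, 122 and 105 FPKM at E15.5 and 64.5, 82.6 and 100.3 FPKM at E18.5, with a log2 fold change of -0.37 ± 0.21 (SE, limma adjusted p = 0.514). For Lamb2 and Lamc1, as for Lama2 and Lama4, E18.5 replicate 1 was the lowest of all 6 libraries and E18.5 replicate 3 the highest of its day. Lamc3 was at 0.0721 to 0.130 FPKM in all 6 libraries, near the filter on low values.

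Of the 9 chains, 1 met the study's criterion between E18.5 and E15.5, Lamb3, against 6.05% of all 30928 rows tested in either direction and 3.11% higher at E18.5. In 4 chains the days did not overlap, Lamb3 and Lama5 higher and Lama2 and Lama4 lower at E18.5, against 19.9% of all rows. The adjusted threshold was passed by 0 of 9 chains in limma (3 had an unadjusted p under 0.05), against 0.0259% of all rows, which again leaves nothing to read from the count. Without E15.5 replicate 1, Lamb3 was still the chain that met the criterion, against 5.02% of all rows, and 5 chains did not overlap, against 29.0%. The unadjusted limma p was then 0.0090 for Lamb3, and above 0.05 for Lama2 (0.069) and Lama4 (0.064). The median log2 fold change of the 9 chains was -0.22, against 0.02 over all rows.

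The order of the chains by level differed between the days within each table. Lama3 is left out of it at implantation because of its less comparable scale there, which leaves 8 chains. The place of Lamb2 at implantation is that of the row merged with Usp19. At E0.5 Lama5 (39.3 to 45.6 FPKM) was clear of Lamb2 (18.6 to 19.4 FPKM). Lamc1 (12.03 to 21.3 FPKM) overlapped with both Lamb2 and Lamb1, Lama4, Lama2 and Lamb3 followed without overlap, and Lama1 was the lowest of the 8, clear of the others. At E4.5, ordered by the mean, each chain overlapped with the next from Lamc1 over Lamb2, Lama5, Lamb1, Lama2 and Lama1 to Lama4, and Lamb3 was the lowest of the 8 at 0.671 to 2.11 FPKM, clear of the others. The places of Lama1 and Lama5 in that order rest on E4.5 replicate 3. In E4.5 replicates 1 and 2 alone, Lamc1 overlapped with Lama5, Lamb2 lay clear below them, Lamb1 and Lama2 overlapped, and Lama4 (5.92 and 8.10 FPKM), Lama1 (3.28 and 3.47 FPKM) and Lamb3 followed without overlap. At E15.5 Lamc1 (91.0 to 122 FPKM) was clear of Lamb2 and Lama4, which overlapped at 56.7 to 65.7 FPKM. Lamb1 and Lama5 overlapped below them, Lama2 and then Lama3 followed without overlap, and Lama1 and Lamb3 overlapped at the bottom. At E18.5 Lamc1 (64.5 to 100.3 FPKM) was above Lamb2 (43.5 to 61.2 FPKM) without overlap, Lamb2 overlapped with Lama4 and Lama4 with Lamb1, Lama5 followed without overlap, Lama3, Lama2 and Lamb3 overlapped at 5.79 to 9.93 FPKM, and Lama1 (0.633 to 1.46 FPKM) was the lowest, clear of all others.

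Collagen IV, the other network of the basement membrane, has 6 chains. Col4a1 and Col4a2, its most common chains, were 33.1 to 49.1 and 25.9 to 34.7 FPKM at E0.5 against 35.8 to 55.6 and 24.9 to 44.4 FPKM at E4.5, with overlapping days. Of the 6 chains 1 met the criterion, against 12.2% of all rows. It was Col4a6, with 2.17, 2.93 and 3.75 FPKM at E0.5 against 9.86, 9.93 and 2.86 FPKM at E4.5 and a log2 fold change of -1.36 (edgeR adjusted p = 0.240). In E4.5 replicate 3 Col4a6 lay within the E0.5 range, like Lama3. Without that library 2 chains met the criterion and passed the adjusted threshold, against 14.4% and 6.28% of all rows. They were Col4a6 at -1.76 and Col4a5 at -1.13 (edgeR adjusted p = 0.0111 and 0.0114). At the labor stage 0 of 6 met the criterion, by limma with all 6 libraries or without E15.5 replicate 1, against 6.05% and 5.02% of all rows. With all 6 libraries, Col4a3 (-0.55) and Col4a4 (-0.59) had an unadjusted p under 0.05 by limma. The median log2 fold change was -0.97 at implantation and -0.38 at labor.

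Of the 14 linkers, proteoglycans and matrix proteins of basement membranes, 3 met the criterion at implantation, against 12.2% of all rows. Of these, 2 were higher and 1 lower at E0.5. Papln, the proteoglycan-like protein papilin, was 2.99, 2.99 and 3.29 FPKM at E0.5 against 0.936, 0.778 and 1.42 FPKM at E4.5, with a log2 fold change of 1.57 (edgeR adjusted p = 0.0478). Fbln2, a fibulin that binds laminins and nidogen, had a log2 fold change of 1.04, and Ntn4, a netrin that binds laminin gamma chains, one of -1.18 (edgeR adjusted p = 0.0893 and 0.178). Without E4.5 replicate 3 these were 1.83 for Papln, 0.84 for Fbln2 and -0.86 for Ntn4. Of the 14, 2 then met the criterion, against 14.4% of all rows, and 4 passed the adjusted threshold, against 6.28%. The 2 were Papln and the collagen Col18a1 (-1.52, edgeR adjusted p = 0.0528). The 4 were Papln and Fbln2, higher at E0.5 (edgeR adjusted p = 0.00624 and 0.0307), and Nid1 and the calcium-binding matrix protein Smoc1, lower at E0.5 (0.0456 and 0.0240). The nidogen Nid1 was 15.9 to 22.5 FPKM at E0.5 against 36.4, 35.4 and 21.3 FPKM at E4.5, again with E4.5 replicate 3 within the E0.5 range (edgeR adjusted p = 0.301), and its log2 fold change was -0.88 without that library. At the labor stage 0 of 14 met the criterion by limma, with or without E15.5 replicate 1, against 6.05% and 5.02% of all rows. Ntn4 was 5.02 to 5.52 FPKM at E18.5 and 2.64 to 3.36 FPKM at E15.5, with a log2 fold change of 0.79 (limma adjusted p = 0.140). The median over the 14 was -0.16 at implantation and 0.24 at labor.

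Of the 10 laminin receptors and their partners, 1 met the criterion at implantation, against 12.2% of all rows. Itga2, the alpha subunit of a collagen and laminin integrin, was 5.48, 4.15 and 4.30 FPKM at E0.5 against 1.52, 1.23 and 4.02 FPKM at E4.5, with a log2 fold change of 1.06 (edgeR adjusted p = 0.284). Without E4.5 replicate 3 it was 1.73 (edgeR adjusted p = 0.00778). Itga6, the alpha subunit of the main epithelial laminin integrins, was 5.60 to 10.2 FPKM at E0.5 against 6.89 to 9.64 FPKM at E4.5, and Dag1, dystroglycan, was 13.2 to 18.8 FPKM in 5 libraries and 47.4 FPKM in E4.5 replicate 3. At the labor stage 1 of the 10 met the criterion, against 6.05% of all rows. This was Itgb4, the beta subunit that joins laminin to keratin at hemidesmosomes. It was 1.41, 5.19 and 6.26 FPKM at E15.5 and 11.2, 6.84 and 9.22 FPKM at E18.5, with a log2 fold change of 1.28 (limma adjusted p = 0.404). Without E15.5 replicate 1 it was 0.64, and 0 of 10 met the criterion by limma, against 5.02% of all rows. Itga3, another laminin-binding integrin subunit, was 5.24, 7.48 and 9.30 FPKM at E15.5 and 12.5 to 14.3 FPKM at E18.5, with a log2 fold change of 0.89 (limma adjusted p = 0.185). The median over the 10 was -0.05 at implantation and 0.08 at labor.

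Of the 9 proteases and inhibitors that act on basement membranes, 6 met the criterion at implantation, 4 higher and 2 lower at E0.5, against 12.2% of all rows. Mmp14, a membrane-bound metalloproteinase that cleaves laminins and activates Mmp2, was 18.3, 19.6 and 23.2 FPKM at E0.5 against 5.81, 5.55 and 6.43 FPKM at E4.5, with a log2 fold change of 1.79 (edgeR adjusted p = 0.0161). Timp2, the inhibitor that works with Mmp14 in that activation, was 51.5, 57.3 and 66.8 FPKM at E0.5 against 26.5, 27.3 and 31.2 FPKM at E4.5, with a log2 fold change of 1.06 (edgeR adjusted p = 0.0448). Both fell from E0.5 to E4.5, and both were alike in E4.5 replicate 3 and the other E4.5 libraries.

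The other proteases and inhibitors of that count were Mmp3 and Mmp9, higher at E0.5, and Mmp7 and Timp1, lower at E0.5. Mmp3, stromelysin, was 3.29, 5.99 and 6.71 FPKM at E0.5 against 0.661, 0.156 and 0 FPKM at E4.5 (log2 fold change 4.22, edgeR adjusted p = 0.187, and 3.64 without E4.5 replicate 3, edgeR adjusted p = 0.0295). Mmp7, the epithelial matrilysin, was 3.18, 0.655 and 8.10 FPKM at E0.5 against 59.9, 32.2 and 4.36 FPKM at E4.5 (log2 fold change -3.04, edgeR adjusted p = 0.253). Timp1 was 1.10 to 2.31 FPKM at E0.5 against 2.83, 2.04 and 16.2 FPKM at E4.5. Its log2 fold change went from -2.10 to -0.65 without E4.5 replicate 3. That leaves 5 of the 9 meeting the criterion, against 14.4% of all rows. At the labor stage 1 of the 9, Mmp7, met the criterion, against 6.05% of all rows. Mmp7 was 15.0, 16.5 and 36.7 FPKM at E15.5 and 126, 116 and 81.2 FPKM at E18.5, with a log2 fold change of 2.34 (limma adjusted p = 0.102). It was 2.10 without E15.5 replicate 1. The median over the 9 was 0.31 at implantation and 0.33 at labor.

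**Figure D4:**
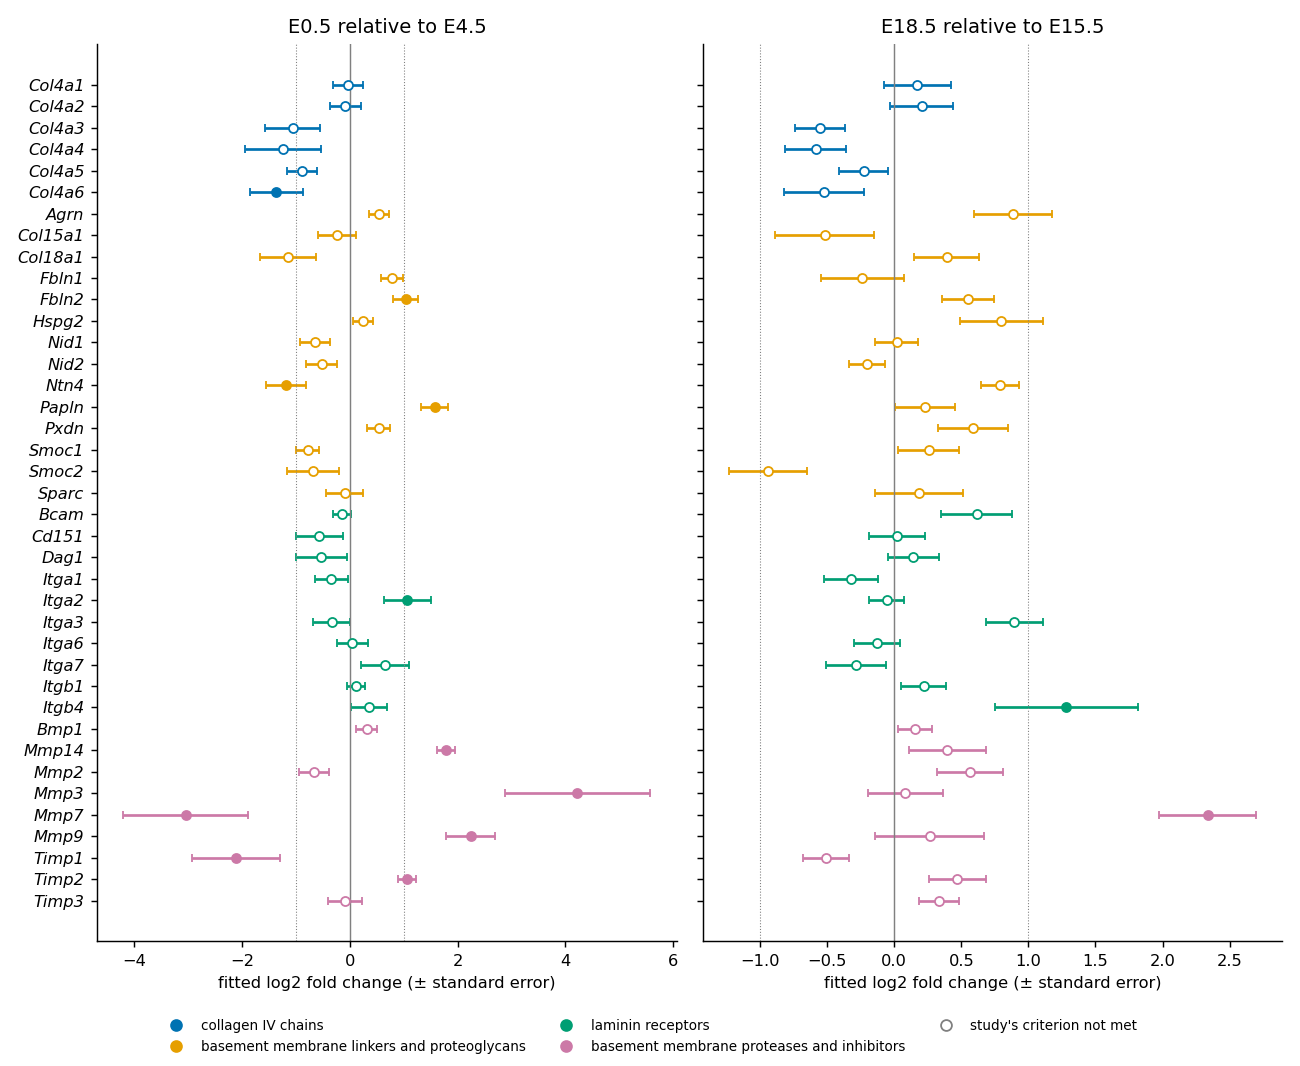
Fitted log2 fold changes with standard errors (horizontal axis) of 39 partner genes of the laminins, coloured by list, for E0.5 relative to E4.5 (left) and E18.5 relative to E15.5 (right). Filled points meet the study's criterion, which on the left include Mmp14 at 1.79, Timp2 at 1.06 and Papln at 1.57, and on the right Itgb4 at 1.28 and Mmp7 at 2.34.

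The genes whose levels were most like those of Lama1 over the 6 implantation libraries, by Pearson r among 11681 protein-coding rows averaging 1 FPKM or more, were Cul1 (r = 0.997), Caprin2 (0.995), Adcy3 (0.994), Cblb (0.993) and Usp28 (0.993). Cul1, a scaffold of ubiquitin ligases, was 4.95 to 5.46 FPKM at E0.5 against 6.44, 6.51 and 7.49 FPKM at E4.5. In all, 249 rows had an r over 0.95 with Lama1, whose 6 points are set largely by E4.5 replicate 3. For Lamc1 the closest rows at implantation were Jmjd6 (0.983), Fcer1g (0.982), Ank2 (0.978), Fbxo30 (0.976) and Flvcr1 (0.972). At labor they were Lrrc8b (0.997), Esyt1 (0.990), Itga7 (0.983), Gm23692 (0.983) and Lamb2 (0.980), among 11565 rows. Those rows share an Ensembl transcript with a coding row of the implantation stage, and need not be coding themselves. Among these, Itga7 and Lamb2 are a laminin-binding integrin subunit and a laminin chain. The points of each correlation share libraries and normalization, and with 6 of them so high an r is a description.

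The remaining marker lists gave the following. At implantation the stroma and decidua list had 3 of 9 tested genes meeting the criterion, 1 higher and 2 lower at E0.5, against 12.2% of all rows. Without E4.5 replicate 3 it was 5, 1 higher and 4 lower, against 14.4%. The decidual signal Bmp2 had 0.484 to 0.580 FPKM at E0.5 against 3.97 to 8.25 FPKM at E4.5 (log2 fold change -3.44, edgeR adjusted p = 0.0187). Hand2 was also lower at E0.5 (-2.83, edgeR adjusted p = 0.212), and Dcn was higher (1.55, edgeR adjusted p = 0.0675). The list summed to 94.99 FPKM in E4.5 replicate 3 against 207 to 332 FPKM elsewhere. The ovary list had 5 of 11 genes meeting the criterion with all libraries and 2 of the 6 still tested without E4.5 replicate 3. The oviduct list summed to 96.1 FPKM in E4.5 replicate 3 and to 9.95 to 27.0 FPKM in the other 5 libraries. The adrenal list summed to 5.38 to 22.5 FPKM at E0.5 against 0.861, 0.0801 and 15.4 FPKM at E4.5. The parietal endoderm and yolk sac list summed to 28.5 to 30.8 FPKM at E0.5 against 45.3 to 63.6 FPKM at E4.5, with Afp at 0 in all 6 libraries. In that list Fst was 0.693 to 0.963 FPKM at E0.5 against 7.94 to 16.2 FPKM at E4.5. Sox17 went the other way, at 6.30 to 7.45 FPKM at E0.5 against 3.17 to 5.93 FPKM at E4.5. Of the trophoblast list, 6 of 11 genes were at 0 in all 6 libraries. At labor the smooth muscle list summed to 2935 to 3972 FPKM at E15.5 and 3560 to 4482 FPKM at E18.5, and the ovary list to 349 to 663 and 688 to 860 FPKM, with Zp3 at 0 in all but 1 library. The adrenal list summed to 178 to 354 FPKM at E15.5 against 87.4 to 168 FPKM at E18.5, without overlap, and 2 of 4 tested genes met the criterion, Akr1b7 and Cyp11b1, both lower at E18.5 (limma adjusted p = 0.282 and 0.199). Most of that sum was Akr1b7, and 1 of 4 met the criterion without E15.5 replicate 1. The stroma and decidua list summed to 2079 FPKM in E15.5 replicate 1 and to 885 to 1027 FPKM in the other 5 libraries. Of its 9 tested genes 2 met the criterion, Cryab and Wnt4, both higher at E18.5 (limma adjusted p = 0.141 and 0.149), and 1 did so without E15.5 replicate 1. The oviduct list summed to 9.41 to 16.1 FPKM at E15.5 against 15.46 to 17.7 FPKM at E18.5, with 1 of 6 tested genes meeting the criterion, Tekt1, higher at E18.5 (limma adjusted p = 0.250). At labor 6.05% of all rows met the criterion, and 5.02% without E15.5 replicate 1. The part of these tissues in the laminin levels was not tested.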

How the data were processed

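RNA from whole uteri of 12 mice was sequenced, 1 library per mouse and 3 per day. Poly(A) selection is given in the labels and ribosomal depletion in the paper. The authors trimmed reads, assembled transcripts with StringTie and estimated FPKM with Ballgown, separately for each stage. They name Bowtie2 and Tophat2 as aligners, while the submitters' processing notes list Bowtie 0.12.2, HISAT2 2.0 and StringTie 1.3.0, and the builds mm8 and mm10. All 9 laminin rows with coordinates overlap the RefSeq gene of the same name on GRCm38.p6, the assembly of mm10. In the deposited FPKM of the implantation stage, 0.0001 stands where a value is 0, and it was read as 0. Its counts were also deposited by the authors as whole numbers, with no statement of how reads were assigned or whether strand was used. The depth of the labor stage is unknown, and precision there rests on the 3 mice per day.

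Rows averaging 0.1 FPKM or more within a stage entered its fit, 59732 and 30928 rows. Counts were fitted with edgeR 4.0.16, by its quasi-likelihood test with TMM factors, and the labor values as log2(FPKM + 0.1) by limma 3.58.1 with its trend option, under R 4.3.3 and with no covariate. A fold change on the log2(FPKM + 0.1) scale understates the change of low genes. An exact permutation test of 3 against 3 mice cannot give a two-sided p below 0.1 and was not used. The fits were tested on simulated data. DESeq2 1.42.0, other scalings, filters and pseudocounts, the replicate number as a block and each library left out were tried. Genes named outside the laminins are, per list, stage and direction, at most 3 with the highest mean FPKM among those meeting the study's criterion, plus the rows most like Lama1 and Lamc1. The exceptions, named after their values were seen, are Mmp9, Col4a1, Col4a2, Col4a3, Col4a4, Col4a5, Nid1, Col18a1, Smoc1, Itga3, Itga6, Dag1, Cldn4, Krt18, Krt19, Sox17, Zp3, Afp and Prl8a2 and, at the labor stage, Ntn4. The members and lists were chosen with earlier results of these data known.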

Additional observations from a re-analysis of the deposited data

Results flagged for a closer look

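Rows named for a laminin chain but holding no Ensembl transcript were outside the comparisons. The implantation table has 9 of them (3 for Lama2, 2 for Lama3, 1 for Lamb3 and 3 for Lamc1), and 8 had more than 3 counts in every library, which is a signal in data not otherwise used. Of the 9, 7 lie on the strand opposite to the gene and 1 has no strand. The 3 rows of Lama2 had log2 fold changes of -2.26 to -1.82 and the 2 rows of Lama3 of -2.37 to -2.27, and all 5 met the study's criterion, with 1 past the adjusted threshold in edgeR. Without a stated use of strand, reads of a gene and of a row opposite to it cannot be told apart. The labor table has 8 such rows, for Lama3, Lama4 and Lamc1, of which 0 met the criterion by limma, by which 0 also passed the adjusted threshold.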

How the results depend on the processing

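Over 14 alternatives per stage, the chains past the adjusted threshold at implantation went from 0 to 3 with DESeq2 (Lama1, Lama2 and Lama3, at adjusted p of up to 0.0254) and ranged from 0 to 4 with 1 library left out, the 4 being without E4.5 replicate 3. At labor the count was 0 in all 14. The chains meeting the study's criterion ranged from 2 to 4 at implantation, 2 being without E0.5 replicate 1. At labor the count was 2 with quantile normalization and with the replicate block, and 1 to 2 with a library left out (2 without E15.5 replicate 3 and without E18.5 replicate 1), Lama1 being added to Lamb3 each time. The log2 fold change of Lamb2 at implantation turned to 0.058 with upper quartile factors and ranged from -0.054 to 0.0020 with a library left out (0.0020 and 0.00066 without E0.5 replicate 1 and without E4.5 replicate 1), and that of Lamb1 at labor ranged from -0.11 (without E15.5 replicate 1) to 0.38. The cause was not tested. The other 8 chains of each stage kept their direction in all 14 alternatives. The median log2 fold change of the chains ranged from -0.42 to -0.09 at implantation and from -0.33 to -0.09 at labor. Upper quartile factors moved the median of all rows from -0.01 to 0.08 and the rows meeting the criterion from 3807 higher and 3477 lower to 4261 and 3100. Over all rows, calls past the adjusted threshold at implantation went from 730 to 5885 with DESeq2, 1126 with a mean of at least 1 FPKM, 0 with the block, and 0 to 3652 with a library left out. At labor they went from 8 to 27 without the trend, 2 with the block, and 0 to 29 with a library left out. Replicate numbers did not pair the mice: deviations of libraries with the same number correlated at -0.063 to 0.018 at implantation and -0.049 to 0.017 at labor. With the block the adjusted p of Lama1, Lama2 and Lama3 at implantation was 0.220, 0.204 and 0.473. The fits of the lists without E4.5 replicate 3 or E15.5 replicate 1 were added after seeing the data. Low counts limit Lama1 at E0.5, with 74 to 326 counts per library.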
